A study of Homo sapiens with 18 samples.

Results

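SYK knockdown was examined in PC-9, a human lung cancer cell line with an EGFR exon 19 deletion, through RNA sequencing of cells that stably carried an shRNA against SYK (shSYK) and of negative control cells (nc). All 6 PC-9 libraries of the 18 libraries in the series were used, 3 nc and 3 shSYK. The other 12 libraries came from HCC827, which the labels also give an EGFR exon 19 deletion, and from EBC-1, lung cancer cells whose MET gene is amplified. A single shRNA clone was used and was delivered by lentivirus, so an effect of SYK loss and an effect of that clone cannot be told apart. The labels do not say whether the 3 libraries of a group came from separate cultures, and the p-values below measure the spread between these libraries. Of the 58302 genes in the deposited table, the 12089 whose FPKM averaged 1 or more across the 6 libraries were examined. A gene low in 1 group could pass this filter through its level in the other. FPKM are the fragments on a gene scaled by its length and by a library constant, and differences were taken as shSYK minus nc on log2(FPKM + 1), a scale that understates the change of low genes.

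SYK is a cytoplasmic tyrosine kinase best known for coupling immune receptors to intracellular signalling in blood cells, and it is also present in epithelial cells. The study asked whether SYK holds lung cancer cells in an epithelial state, in which cells are joined by E-cadherin and carry keratin filaments, as opposed to a mesenchymal state marked by vimentin and fibronectin. EGFR-mutant cells such as PC-9 depend on EGFR, whose signal runs through ERK to transcription factors of the AP-1 family, among them FRA1, encoded by FOSL1.

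Between 9362879 and 10856326 reads lay on genes in the nc libraries and between 10712397 and 12913607 in the shSYK libraries. The markers of carcinoma epithelium, 8 genes including EPCAM and the simple keratins KRT8, KRT18 and KRT19, were all detected, with a summed level of 2956 to 5055 FPKM in nc and 3591 to 4037 FPKM in shSYK. Of the 6 lung lineage markers, 3 or 4 lay at or under 3 reads in each library, and their summed level was 1.997 to 2.817 FPKM over the 6 libraries. Fibroblast markers summed to 5.49 to 8.371 FPKM with 4 or 5 of 6 at or under 3 reads, and leukocyte markers to 0.7684 to 1.254 FPKM. The endothelial markers summed to 15.06 to 17.05 FPKM in nc and 6.617 to 7.942 FPKM in shSYK, most of it from PECAM1. In bulk RNA, fewer cells of a type and less RNA per cell cannot be told apart.

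The nc libraries did not have the same base composition. In nc replicate 1 the 2301 genes with a GC content under 42% lay at a median of -0.32 (log2) from their mean over the 6 libraries, while the 3964 genes with a GC content over 55% lay at 0.31. In nc replicate 2 the same genes lay at 0.20 and -0.19, the opposite way, and in nc replicate 3 at -0.02 and 0.01. The shSYK libraries lay between -0.01 and 0.10 for the GC-poor genes and between -0.11 and 0.04 for the GC-rich genes. The first principal component, with 48.1% of the variance, ran between nc replicates 1 and 2 (scores of 36.6 and -16.2), and the groups separated on the second, with 29.2%. When the trend on GC content was removed from each library, the first component, now with 41.4%, separated the groups, with scores of 12.9 to 16.8 in nc and -14.3 to -14.2 in shSYK. Results are therefore given for the deposited values and, where stated, for values with the GC trend removed (GC-adjusted).

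**Figure D1:**
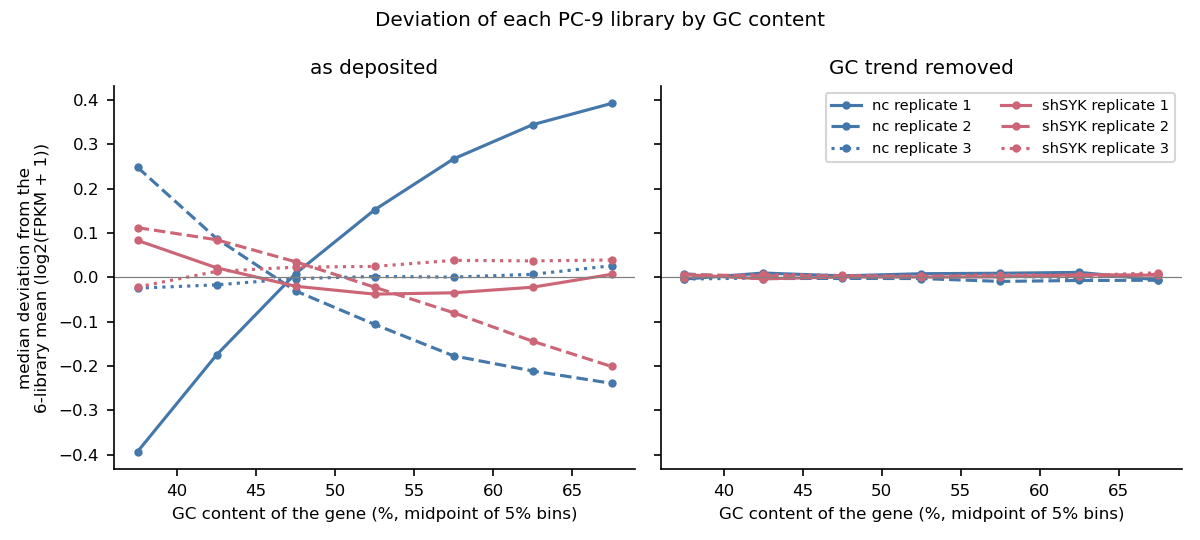
Median deviation of each PC-9 library from the 6-library mean of each gene (y axis, log2(FPKM + 1)) for genes in 5% bins of GC content (x axis), as deposited on the left and with the GC trend removed on the right. Each line is a library, nc in blue and shSYK in red. As deposited, nc replicate 1 runs from -0.39 at 35 to 40% GC to 0.39 at 65 to 70% GC and nc replicate 2 from 0.25 to -0.24, and after removal the lines lie on 0.

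SYK itself was at 7.31, 6.04 and 6.17 FPKM in the nc libraries and at 2.28, 1.64 and 2.35 FPKM in the shSYK libraries. The groups did not overlap, and shSYK held 32.1% of the nc mean. The difference was -1.29 ± 0.13 (log2, SE, limma adjusted p = 0.0073), and -1.27 with the GC trend removed (limma adjusted p = 0.00095). An exact two-sided permutation test over the 6 libraries gave p = 0.1, the smallest it can give for 3 against 3. Without shSYK replicate 1 the difference was -1.33 and the limma adjusted p was 0.065.

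Across the transcriptome, 253 genes (2.09% of 12089) had a limma adjusted p under 0.05 and are called changed here, 82 of them higher in shSYK (0.678%) and 171 lower (1.41%). In all 253 the 3 shSYK libraries lay outside the range of the 3 nc libraries, as they did in 23.7% of all genes tested. The change was at least 1 (log2) in 19 rises and 44 falls. Protein-coding genes made up 221 of the 253. The median over all genes tested was 0.01. A positive difference was held by 51.9% of them, the share beside which the direction counts of the lists below stand. With the GC trend removed, 1235 genes passed (10.2%), 533 higher (4.41%) and 702 lower (5.81%), and they included 250 of the 253 in the same direction. The 3 that no longer passed were ANKRD22, RNF224 and the unnamed locus AC016877.3. The median GC content was 49.5% for the rises, 53.2% for the falls and 49.8% for all genes tested.

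The number of changed genes depended on single libraries. It was 621 without nc replicate 1 and 503 without nc replicate 2, the libraries at the ends of the GC trend, but 24 without nc replicate 3, 7 without shSYK replicate 1, 16 without shSYK replicate 2 and 20 without shSYK replicate 3. Only 7 of the 253 stayed changed whichever library was left out, among them KRT5, OLFML3, GADD45A, ALOX5AP, IGFBP5 and the mitochondrial tRNA gene MT-TE, which had 3 reads in each nc library and none in shSYK. Of the other named genes below, most lost their call on the deposited values without nc replicate 3 or without any of the shSYK libraries. On GC-adjusted values the count was 469 to 1795 with a library left out, and 196 of the 253 held in every such fit.

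**Figure D2:**
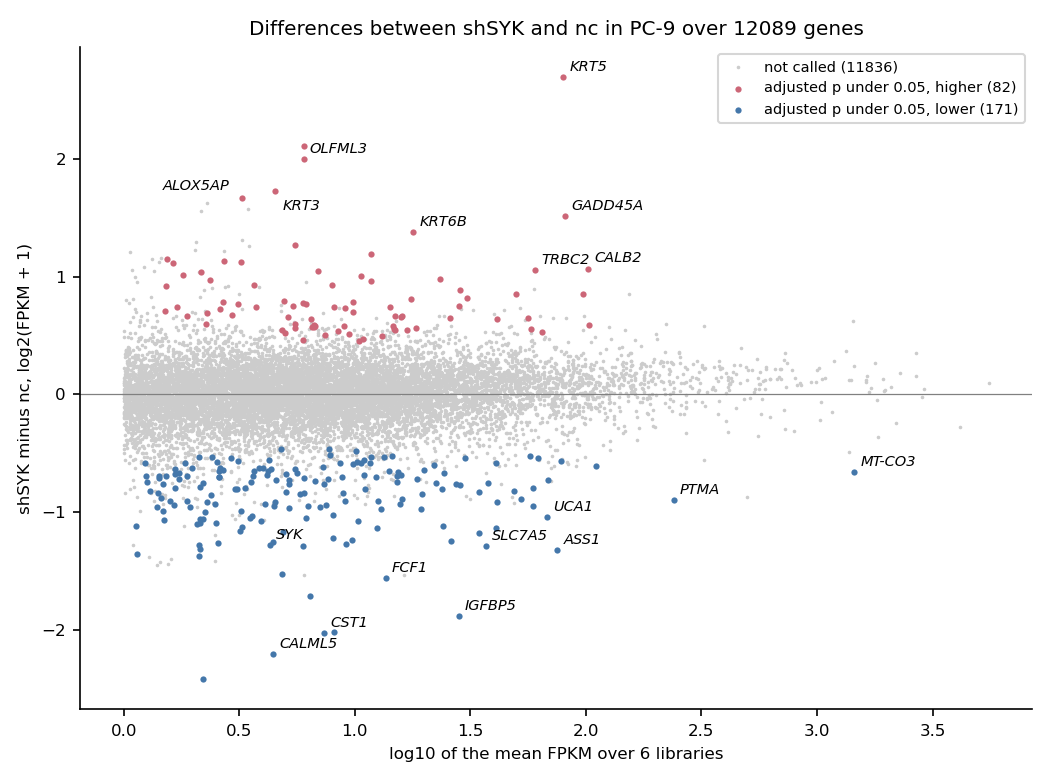
Difference between shSYK and nc (y axis, log2(FPKM + 1)) against the log10 of the mean FPKM over the 6 PC-9 libraries (x axis) for 12089 genes. Red points are the 82 genes higher and blue points the 171 genes lower in shSYK at a limma adjusted p under 0.05, and KRT5 stands at the top at 2.70.

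Some genes of stratified squamous epithelium stood among the largest rises, and others of that tissue fell. KRT5, a keratin of basal cells, was at 23.5, 17.6 and 20.9 FPKM in nc and at 136, 140 and 139 FPKM in shSYK. It was 6.70-fold higher, the largest rise of all genes tested, with a difference of 2.70 ± 0.12 (SE, limma adjusted p = 0.00026). KRT6B, a keratin of activated keratinocytes, rose from 11, 8.29 and 9.29 FPKM to 27.8, 24.3 and 26.8 FPKM (1.38, limma adjusted p = 0.0052). KRT3, a keratin best known from the cornea, rose from between 1.08 and 1.99 FPKM to between 6.35 and 8.42 FPKM (1.73), and the hair keratin KRT34 rose by 0.78 from 2.07, 1.33 and 1.75 FPKM. KRT80 went the other way, from 94.8, 65.4 and 74.8 FPKM to 40.3, 36.5 and 42.2 FPKM (-0.95, limma adjusted p = 0.031). These 5 were the changed members among 20 keratins tested, and GC adjustment added KRT16 and KRT6A, both higher. The simple keratins that make up most of the keratin RNA of these cells did not pass. KRT19, singled out after its values were seen, was at 2777, 1537 and 1917 FPKM in nc and 2024, 2023 and 2279 FPKM in shSYK (0.06, limma adjusted p = 0.94), with the nc libraries alone spanning more than the difference. KRT15 and KRT13, also singled out after their values were seen, were lower and did not pass. KRT15 went from 70.7, 55.2 and 63.5 FPKM to 46.1, 51.5 and 39.8 FPKM (-0.46, limma adjusted p = 0.18). KRT13 differed by -0.27 with groups that overlapped (limma adjusted p = 0.44). The median of the keratins was -0.03 on the deposited values and 0.04 on GC-adjusted values, so the family as a whole had no fixed direction.

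Genes of the cornified envelope, the protein shell of terminally differentiating keratinocytes, moved in part with the keratins. SPRR1A, one of its small proline-rich precursors, was at 6.72, 7.33 and 6.04 FPKM in nc and 11.8, 17.6 and 14.2 FPKM in shSYK (1.001, limma adjusted p = 0.024). TGM5, a transglutaminase that crosslinks envelope proteins, rose from 2.83, 2.37 and 3.30 FPKM to 8.56, 8.20 and 7.76 FPKM (1.26, limma adjusted p = 0.0052). KRTAP2-3, a keratin-associated protein of hair, rose by 0.93. Of the 13 tested genes on the list of small proline-rich and cornified envelope genes, 2 rose (KRT6B and SPRR1A) and 1 fell, the kallikrein protease KLK10 (-0.63), with a median of 0.14. On GC-adjusted values 6 rose and 2 fell, and the median was 0.20. PPL, the desmosomal and envelope protein periplakin, fell from 36.4, 34.1 and 33.3 FPKM to 19.5, 20.7 and 19.9 FPKM (-0.76, limma adjusted p = 0.013). CALML5, a calcium-binding protein of differentiating epidermis that was singled out after its values were seen, fell from 72, 62 and 65 reads to 3, 19 and 8 reads (limma adjusted p = 0.014). TINCR, singled out in the same way, fell by 0.58 (limma adjusted p = 0.045).

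The promoters of the changed genes are shown for SPRR1A and KRT5 because both genes stood among the rises, and because AP-1 lies downstream of the kinases under study. The sequences are RefSeq windows of build GRCh38.p14, from 250 bases before to 50 bases after a gene's start, on the gene's strand. Capitals mark the letters TGANTCA, searched for AP-1, and TATAAA, the TATA box, where they occur. TGANTCA takes any base in the middle, so it is wider than the AP-1 motif, whose middle base is C or G.
SPRR1A, chr1:152983831-152984130, plus strand: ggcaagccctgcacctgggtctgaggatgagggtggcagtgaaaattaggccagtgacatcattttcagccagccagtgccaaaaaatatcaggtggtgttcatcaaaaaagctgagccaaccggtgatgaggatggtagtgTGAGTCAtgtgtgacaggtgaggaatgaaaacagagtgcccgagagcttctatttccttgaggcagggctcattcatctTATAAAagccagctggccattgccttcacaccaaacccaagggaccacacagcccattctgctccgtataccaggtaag
KRT5, chr12:52520345-52520644, minus strand: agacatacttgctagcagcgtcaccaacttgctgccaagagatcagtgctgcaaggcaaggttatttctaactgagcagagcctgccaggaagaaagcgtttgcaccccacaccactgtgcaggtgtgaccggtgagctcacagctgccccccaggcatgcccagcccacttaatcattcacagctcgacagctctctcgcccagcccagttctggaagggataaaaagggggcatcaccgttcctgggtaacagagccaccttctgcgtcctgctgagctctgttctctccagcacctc
In SPRR1A the AP-1 letters began 108 bases and the TATA letters 29 bases before the start. The KRT5 window held neither, nor the letters GGGCGG of the Sp1-binding GC box. RefSeq windows were found for 55 of the 82 rises, 69 windows in all, and 8 of these (11.6%) held TGANTCA on either strand. The share was 3.57% of 168 windows of the falls, 5.22% of 12347 windows of all genes tested and 7.71% of all 35116 windows in the table. GGGCGG was held by 62.3% of the windows of the rises, 64.3% of those of the falls and 68.1% of those of all genes tested, and TATAAA by 15.9%, 11.3% and 5.67%. These are descriptions of letters, and binding was not measured. Other rises with the AP-1 letters included PALLD, which organizes actin bundles, TMEM156 and the noncoding RNA LINC01895, chosen after their values were seen and shown here with the motif in capitals.
PALLD, chr4:168832031-168832061: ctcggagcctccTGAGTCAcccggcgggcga
TMEM156, chr4:39032472-39032502: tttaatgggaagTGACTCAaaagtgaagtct
LINC01895, chr18:3350690-3350720: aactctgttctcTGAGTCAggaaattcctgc
PALLD rose by 0.74, TMEM156 by 0.58 and LINC01895 by 0.93 (log2).

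**Figure D3:**
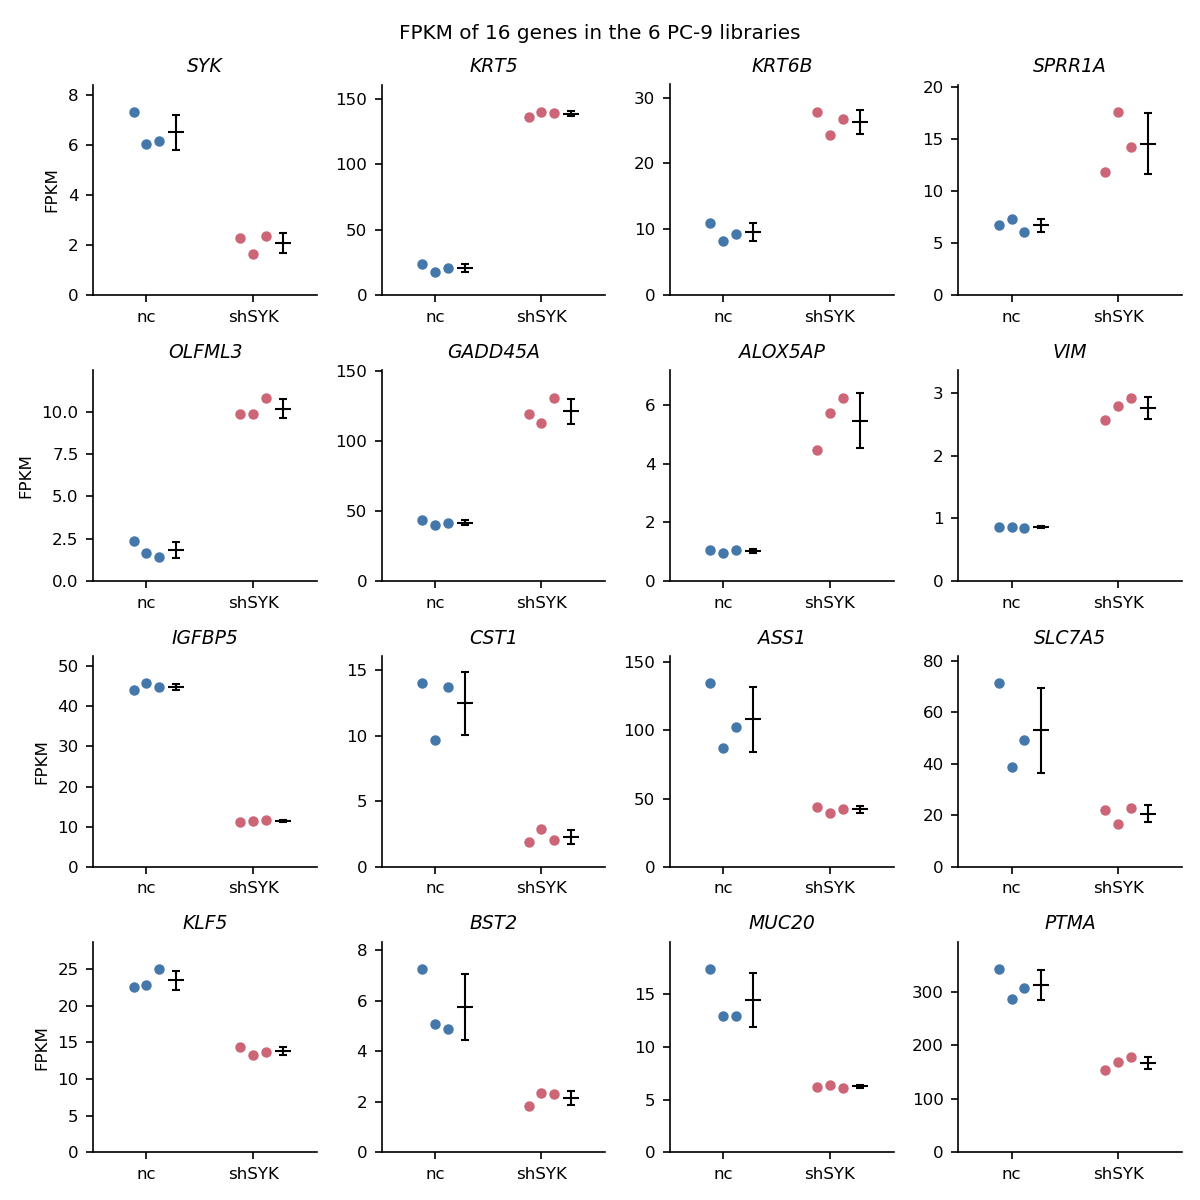
FPKM (y axis, from 0) of 16 genes in the 3 nc (blue) and 3 shSYK (red) libraries of PC-9, with the mean and SD of each group in black. In every panel the groups do not overlap, and KRT5 moves from 17.6 to 23.5 FPKM in nc to 136 to 140 FPKM in shSYK.

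3 markers of the mesenchymal state rose, VIM and SNAI2 from low levels, while 1 of 34 epithelial junction genes had changed. VIM, the intermediate filament vimentin, was at 0.867, 0.867 and 0.837 FPKM in nc, or 37 to 52 reads, and at 2.56, 2.79 and 2.92 FPKM in shSYK (1.02, limma adjusted p = 0.0077). It was 3.22-fold higher and stayed under 3 FPKM, far below the keratins. SNAI2, the transcriptional repressor SLUG, rose from 0.658, 1.01 and 1.04 FPKM to 2.24, 2.23 and 1.83 FPKM (0.71, limma adjusted p = 0.048). CD44, a hyaluronan receptor, rose from 81.6, 82.9 and 82.6 FPKM to 117, 127 and 129 FPKM (0.59, limma adjusted p = 0.036). These 3 were the changed genes among 10 mesenchymal markers tested, 8 of which had a positive difference, with a median of 0.33 against 0.01 for all genes. Another 8 of the 18 listed markers lay under the expression filter. VIM and SNAI2 averaged under 1 FPKM in nc and passed it only through their shSYK values. The counts and the median of this list therefore lean toward rises. GC adjustment added LGALS1, a galectin, and FN1, fibronectin, both higher. FN1 was at 5.02, 5.62 and 4.60 FPKM in nc and 7.24, 7.32 and 7.56 FPKM in shSYK (0.46, limma adjusted p = 0.0615 as deposited and 0.0205 GC-adjusted).

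Of 34 epithelial junction genes, only PPL had changed, and the median was 0.05. On GC-adjusted values 2 rose, DSP and NECTIN4, and 4 fell, PPL, CDH1, CTNND1 and TJP3. CDH1, E-cadherin, was at 42.7, 37.7 and 38.1 FPKM in nc and at 31.0, 33.9 and 31.9 FPKM in shSYK. The groups did not overlap, and shSYK held 81.7% of the nc mean, a difference of -0.28 with a limma adjusted p of 0.24 as deposited and 0.025 GC-adjusted. EPCAM, an epithelial adhesion molecule, was at 84.3 to 109 FPKM in nc and 113 to 121 FPKM in shSYK (0.25, limma adjusted p = 0.40). Among 13 regulators of epithelial identity, 1 rose and 1 fell, with a median of -0.12. The fall was that of KLF5, a factor of proliferating epithelium, from 22.5, 22.8 and 25.0 FPKM to 14.4, 13.3 and 13.7 FPKM (-0.72, limma adjusted p = 0.016). On GC-adjusted values 1 rose and 4 fell.

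Genes of the extracellular matrix and of the TGF-beta response split into rises and falls. TGFBI, a matrix protein induced by TGF-beta, rose from 23.4, 18.2 and 21.0 FPKM to 33.3, 35.8 and 37.8 FPKM (0.75), and the ligand TGFB2 rose by 0.56. LTBP1, which stores latent TGF-beta in the matrix, fell by 0.54. The list of 18 matrix and TGF-beta response genes had 3 rises and 1 fall, with a median of -0.08. In the pathway itself SMAD6, an inhibitory SMAD, fell by 0.77 and the ligand BMP4 by 0.64, and TGFB1 was at 55.7, 27.7 and 37.3 FPKM in nc and 42, 33.9 and 44.8 FPKM in shSYK (0.05, limma adjusted p = 0.96). The wide nc values of TGFB1 cover those of shSYK.

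Further genes of matrix and proteolysis changed singly. OLFML3, a secreted olfactomedin-like protein, was at 2.36, 1.68 and 1.43 FPKM in nc and at 9.86, 9.85 and 10.8 FPKM in shSYK, a 5.59-fold rise (1.999, limma adjusted p = 0.0019). SERPINB1, an intracellular protease inhibitor, rose by 0.85. PLAT, the tissue plasminogen activator, fell from 94.6, 75.5 and 87.5 FPKM to 48.6, 51.6 and 54.0 FPKM (-0.72, limma adjusted p = 0.034). LOXL4, a collagen-crosslinking oxidase, fell by 1.12. IGFBP5, a secreted binding protein of insulin-like growth factors, fell from 44.2, 45.7 and 44.9 FPKM to 11.2, 11.4 and 11.7 FPKM, 25.4% of the nc mean (-1.89 ± 0.09, SE, limma adjusted p = 0.00026). The groups lay far apart, and the libraries within each were close together. ITGB2, the leukocyte integrin beta subunit, fell by 1.16, and PECAM1, a cell adhesion molecule of endothelium, from 14.4, 12.7 and 13.1 FPKM to 4.28, 5.34 and 5.31 FPKM (-1.27, limma adjusted p = 0.0049).

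Among mucins and secreted mucosal defence genes, 3 and 3 fell and 1 rose. All 4 mucins tested were lower, and 3 had changed. MUC20 went from 17.4, 12.9 and 13.0 FPKM to 6.24, 6.41 and 6.14 FPKM (-1.07, limma adjusted p = 0.013), MUC4 fell by 0.96, and MUC1 from 2.72, 2.53 and 2.60 FPKM to 1.54, 1.26 and 1.23 FPKM (-0.63, limma adjusted p = 0.034). MUC20 and MUC4 are neighbours on chromosome 3, and the next changed gene beside them, the noncoding RNA LINC01983, also fell (-1.38). Of 12 secretory defence genes, CEACAM5, CEACAM6 and the calprotectin subunit S100A8 fell by 0.80, 0.61 and 0.80, and the trefoil factor TFF1 rose by 0.74 from about 1 FPKM. CEACAM6 was at 126, 135 and 140 FPKM in nc and 79.8, 91.6 and 91.1 FPKM in shSYK. LCN2, the iron-sequestering lipocalin and one of the most abundant of these RNAs, was singled out after its values were seen. It was at 793, 508 and 648 FPKM in nc and at 338, 338 and 369 FPKM in shSYK (-0.88), with a limma adjusted p of 0.052 as deposited and 0.0019 GC-adjusted.

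A cluster of salivary cystatins, secreted inhibitors of cysteine proteases, fell together. CST1 was at 14, 9.67 and 13.8 FPKM in nc and at 1.92, 2.91 and 2.03 FPKM in shSYK, 18.3% of the nc mean (-2.03, limma adjusted p = 0.0049). Its neighbours on chromosome 20, CST4 and CST2, singled out after their values were seen, fell by 1.52 and 1.26 (limma adjusted p = 0.011 and 0.024). The 3 genes are close relatives in sequence, and how the authors' counting divided reads between them is not known. UPK2, a urothelial membrane protein, fell from 48.6, 28 and 34.9 FPKM to 15.6, 16.5 and 12.3 FPKM (-1.25), and TRIM31, an epithelial ubiquitin ligase, from 8.28, 8.37 and 9.31 FPKM to 3.76, 3.74 and 3.48 FPKM (-1.05, limma adjusted p = 0.0049).

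Among the ErbB genes and the bypass receptor kinases, 1 gene rose and 1 fell. EGFR was at 60.9, 87.1 and 69.1 FPKM in nc and 85.5, 102 and 89.3 FPKM in shSYK (0.36, limma adjusted p = 0.33), and MET at 7.92, 12.5 and 10.5 FPKM and 6.33, 7.47 and 7.75 FPKM (-0.45, limma adjusted p = 0.24, and 0.046 GC-adjusted). AXL, a receptor kinase of drug-tolerant states, was at 5.69 to 7.20 FPKM in nc and 6.38 to 7.09 FPKM in shSYK (0.03, limma adjusted p = 0.94). HBEGF, an EGFR ligand, rose from 7.49, 6.01 and 7.53 FPKM to 11, 10.4 and 11.4 FPKM (0.58, limma adjusted p = 0.049), the only change among 11 ErbB receptors and ligands as deposited. On GC-adjusted values TGFA rose as well, and ERBB2 and ERBB3 fell. FGFR3 fell by 0.92 and was the only change among 16 bypass receptor kinases, of which 12 had a negative difference. Their library medians overlapped between the groups as deposited and did not on GC-adjusted values. In GC-adjusted values 4 of these 16 fell: FGFR3, MET, EPHA2 and MST1R.

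Genes that ERK activity induces as feedback had a negative median (-0.11), with 16 of 21 lower. SPRY1, a feedback inhibitor of receptor signalling, fell by 0.67 and CCND1, cyclin D1, from 71.5, 64.3 and 67.3 FPKM to 45.9, 45.9 and 48.5 FPKM (-0.52, limma adjusted p = 0.049). After GC adjustment 5 of the 21 fell, DUSP4, DUSP6 and EPHA2 besides these, and DUSP5 and PHLDA2 rose. Of the AP-1 and immediate early genes 15 of 23 were higher, with a median of 0.13. The median deviations of both lists overlapped between the groups as deposited, where nc replicate 1 lay at 0.145 for the AP-1 list, above every shSYK library, and did not overlap on GC-adjusted values. DUSP1, a phosphatase of stress kinases, rose from 6.95, 6.69 and 6.13 FPKM to 11.7, 10.8 and 12.3 FPKM (0.73, limma adjusted p = 0.016), and KLF6 by 0.66. JUN, IER5 and MYC joined them on GC-adjusted values. FOSL1 was at 48.3, 27.9 and 35.4 FPKM in nc and 46.2, 38.1 and 48.3 FPKM in shSYK (0.27, limma adjusted p = 0.59, and 0.056 GC-adjusted). SP1 was at 13.5 to 17.4 FPKM in nc and 13.0 to 14.8 FPKM in shSYK (-0.13, limma adjusted p = 0.67). Of the other genes the study followed, CTGF, SNAI1, THBD and RAPGEF5 differed by between -0.18 and 0.20, with limma adjusted p-values of 0.52 to 0.62.

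GADD45A, a growth-arrest and DNA damage gene that is a target of p53, was at 43.4, 40.0 and 41.6 FPKM in nc and at 119, 113 and 131 FPKM in shSYK, 2.91-fold higher (1.52, limma adjusted p = 0.0023). It was the only changed gene among 27 p53 targets. CDKN1A, the p53-induced cell cycle inhibitor, singled out as a comparison after its values were seen, was at 5.69 to 6.10 FPKM in nc and 6.77 to 8.04 FPKM in shSYK (0.31, limma adjusted p = 0.18). BMF, a pro-apoptotic BH3-only protein, fell from 7.15, 5.42 and 6.13 FPKM to 3.00, 2.85 and 2.60 FPKM (-0.92, limma adjusted p = 0.013), the only change among 17 BCL2 family genes. TP53BP1, a DNA break sensor, fell by 0.47.

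Single genes of amino acid synthesis and transport fell. ASS1, the argininosuccinate synthase of arginine synthesis, was at 134, 87.3 and 102 FPKM in nc and at 44.1, 39.5 and 42.4 FPKM in shSYK (-1.32, limma adjusted p = 0.013). SLC7A5, the large neutral amino acid transporter LAT1, was at 71.2, 38.8 and 49.1 FPKM in nc and at 22.1, 16.7 and 22.9 FPKM in shSYK (-1.29, limma adjusted p = 0.041). Both genes spread widely among the nc libraries, without overlap with shSYK. SLC7A5 was the only changed gene among 31 ATF4 targets, genes of the amino acid stress response. It went against the list, of which 21 had a positive difference, with a median of 0.14 (0.19 GC-adjusted). The library medians of the list overlapped between the groups as deposited and did not on GC-adjusted values. Of 18 amino acid transporters SLC7A5 was also the only change, and their median was 0.02. TRIB3, DDIT3, SESN2 and NUPR1 of that list rose on GC-adjusted values, while SLC7A5 and CTH fell. Of 168 solute carriers, SLC16A1, a lactate transporter, rose by 0.65, and 4 fell: SLC7A5, SLC45A4 (-0.95), the heme transporter SLC48A1 (-0.84) and SLC16A5 (-0.60). The GC-adjusted counts were 5 rises and 20 falls.

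Detoxification genes changed in both directions. GPX2, a glutathione peroxidase, fell by 0.93, the efflux pump ABCC3 from 39.6, 34.0 and 35.4 FPKM to 21.3, 19.8 and 21.4 FPKM (-0.77, limma adjusted p = 0.017) and the aldo-keto reductase AKR1C1 by 0.73, the 3 changed genes among 37 NRF2 targets. The median of these targets was 0.05, and on GC-adjusted values 6 rose and 6 fell. Of 22 genes of xenobiotic metabolism and efflux, 1 rose and 2 fell, with a median of -0.14. CYP2S1, a cytochrome P450, fell from 8.71, 4.91 and 6.51 FPKM to 2.22, 1.85 and 2.47 FPKM (-1.25, limma adjusted p = 0.022). ABCG2, the breast cancer resistance efflux pump, rose from 1.52, 0.976 and 1.35 FPKM to 3.32, 3.54 and 3.52 FPKM (0.97, limma adjusted p = 0.013), and ABCC5 rose by 0.50. In the leukotriene pathway ALOX5AP, the activating protein of 5-lipoxygenase, rose from 1.06, 0.953 and 1.06 FPKM to 4.46, 5.72 and 6.26 FPKM (1.67, limma adjusted p = 0.0035), while ALOX5, the enzyme itself, fell from 38.4, 33.9 and 35.2 FPKM to 25.4, 23.3 and 24.1 FPKM (-0.54, limma adjusted p = 0.046). OLR1, a receptor of oxidized lipoprotein, rose from 6.01, 7.54 and 6.71 FPKM to 16.8, 16.2 and 17.0 FPKM (1.19, limma adjusted p = 0.0049), and DEGS1, a ceramide desaturase, by 0.98.

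More interferon-stimulated genes were lower than higher. Of 27 tested, 17 had a negative difference and the median was -0.16, while 51.9% of all genes tested had a positive difference. BST2, the tetherin that holds budding viruses at the membrane, fell from 7.24, 5.07 and 4.89 FPKM to 1.85, 2.33 and 2.29 FPKM (-1.08, limma adjusted p = 0.019), and the neighbouring oligoadenylate synthetase genes OAS3 and OAS1 fell by 0.64 and 0.56. No gene of the list rose, also after GC adjustment, which added falls of IFI6 and IRF1. ISG15, singled out as a widely used member, differed by -0.19 (limma adjusted p = 0.74). IFNGR1, the ligand-binding chain of the interferon gamma receptor, rose from 17.1, 23.5 and 18.8 FPKM to 38.3, 40.5 and 32.7 FPKM (0.88, limma adjusted p = 0.033).

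Small shared shifts appeared in several large families in which few single genes changed. Of 80 cytosolic ribosomal protein genes, 78 had a positive difference, with a median of 0.21 (0.19 GC-adjusted), and 2 rose, RPL22L1 (0.65) and RPL17 (0.51). As deposited, their median deviation overlapped between groups, at -0.28 to 0.10 in nc and 0.04 to 0.14 in shSYK, and on GC-adjusted values it did not. Such a separation on GC-adjusted values was not particular to this family. Splicing factors and solute carriers had it too, and mitochondrial ribosomal proteins did not. Of 75 nuclear genes of the respiratory chain, 67 were higher with a median of 0.14. Their median deviation overlapped between groups as deposited and GC-adjusted, with nc replicate 1 at 0.14, above the shSYK libraries at 0.02 to 0.10, and nc replicate 2 at -0.26. The 1 that had changed, the ATP synthase subunit gene ATP5J2, fell from 67.1, 49.1 and 54.1 FPKM to 24.8, 24.7 and 25.8 FPKM (-1.13, limma adjusted p = 0.013). Of the 13 mitochondrially encoded protein genes 12 were lower, with a median of -0.28 and libraries that overlapped. MT-CO3, a cytochrome oxidase subunit, was the changed one, at 1704, 1867 and 1738 FPKM in nc and 1183, 1130 and 1043 FPKM in shSYK (-0.66, limma adjusted p = 0.037). The share of all reads that lay on mitochondrial genes was 1.986 to 3.127% in nc and 2.059 to 2.551% in shSYK.

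Mitosis and DNA replication genes had medians of opposite sign. Of 44 mitosis genes 37 were higher, with a median of 0.18 (0.13 GC-adjusted), and the list's median deviation did not overlap between groups, at -0.09 to -0.05 in nc and 0.07 to 0.11 in shSYK. None had changed as deposited, when 1881 of 12089 genes had an unadjusted limma p under 0.05. AURKA, AURKB, CCNA2, DLGAP5 and UBE2C rose on GC-adjusted values. They were 11.4% of the list, near the 10.2% of all genes tested. Of 43 DNA replication genes 33 were lower, with a median of -0.18 (-0.20 GC-adjusted), and again none had changed as deposited. Their median deviation overlapped as deposited, at 0.23, -0.08 and 0.07 in nc and -0.07, -0.18 and -0.03 in shSYK, and on GC-adjusted values it did not. MCM10, POLA2, UHRF1 and CHAF1A fell and E2F2 rose on GC-adjusted values, together 11.6% of the list and also near the share of all genes. PCNA, the replication clamp and the most abundant of them, was at 104, 85.6 and 102 FPKM in nc and 88.7, 84.1 and 90.4 FPKM in shSYK (-0.14, limma adjusted p = 0.64). Heat shock response genes were higher in 17 of 20, with a median of 0.24, none changed as deposited, and HSPA8, HSPH1, HSPD1, HSPE1 and BAG3 rose on GC-adjusted values. HSP90AB1, the most abundant, differed by 0.06 (limma adjusted p = 0.89). HSPB8, a small heat shock protein outside that list, rose by 1.12 (limma adjusted p = 0.0049). EIF4EBP2, a repressor of translation initiation, fell from 28.2, 29.2 and 28.2 FPKM to 16.6, 16.4 and 16.6 FPKM (-0.75, limma adjusted p = 0.013).

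**Figure D4:**
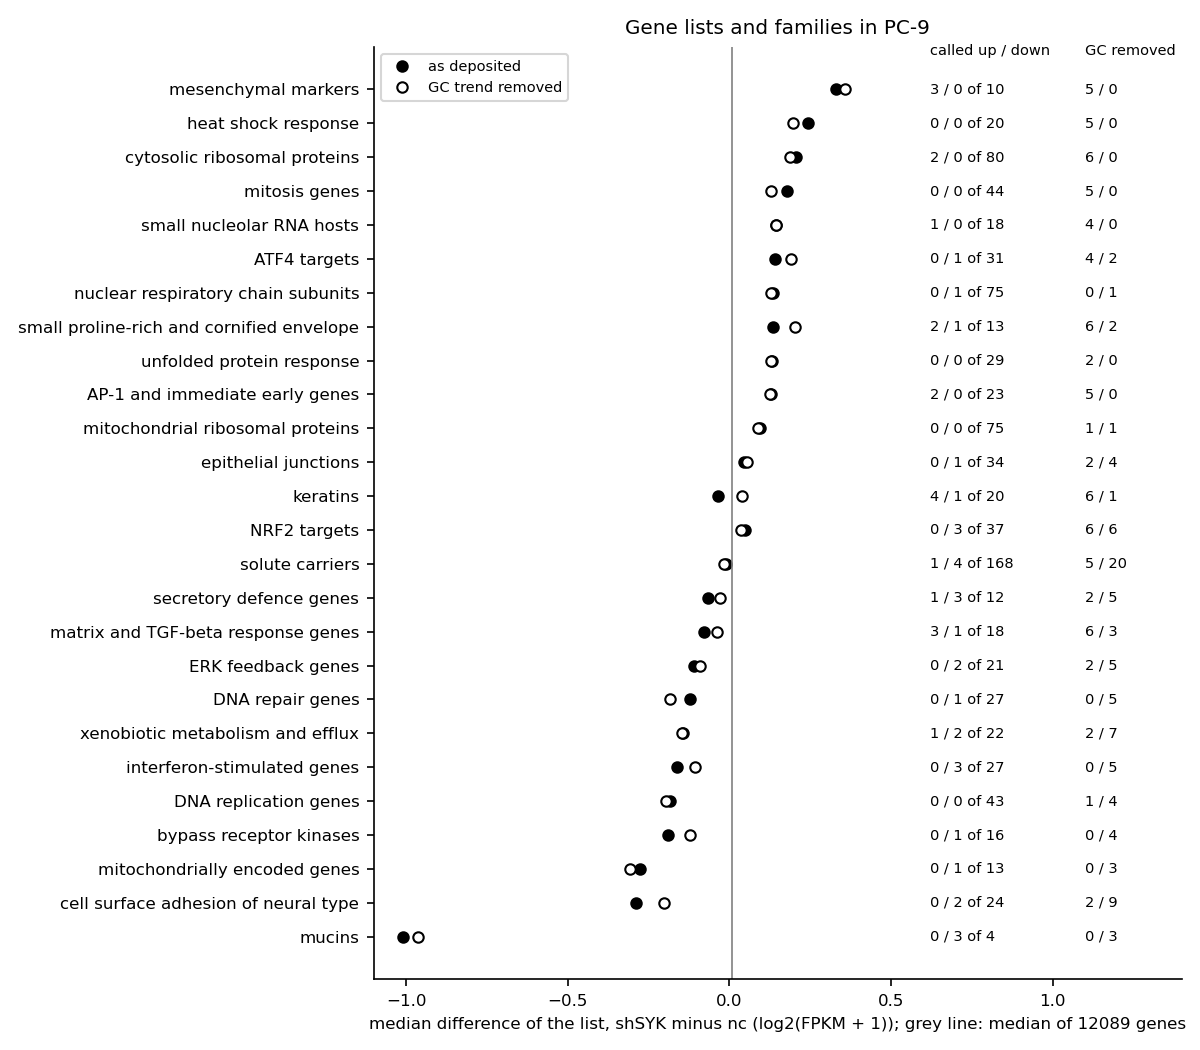
Median difference of 26 gene lists and families (x axis, shSYK minus nc on log2(FPKM + 1)) as deposited (filled) and with the GC trend removed (open), with the grey line at the median of 12089 genes. The columns at the right give the members called up and down of those tested, as deposited and GC-adjusted, and mucins lie lowest at -1.01 with 3 of 4 called down.

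Genes of cell adhesion and axon guidance were lower in 17 of 24, with a median of -0.29 (-0.20 GC-adjusted). The netrin receptor UNC5B fell from 4.15, 2.41 and 3.76 FPKM to 0.850, 0.833 and 0.720 FPKM (-1.28, limma adjusted p = 0.015), and the semaphorin coreceptor NRP2 by 0.58. UNC5A, a relative of UNC5B, fell by 1.24 and PCDH7, a protocadherin, by 0.71. GC-adjusted values gave 9 falls, including the semaphorins SEMA3C and SEMA3F and the plexins PLXNA2, PLXNB2 and PLXND1, and 2 rises, of the ephrins EFNA1 and EFNA4. MAG, a myelin-associated glycoprotein, fell from 23.3, 12.6 and 17.2 FPKM to 8.11, 6.13 and 7.66 FPKM (-1.14, limma adjusted p = 0.045), and its neighbour on chromosome 19, CD22, a B-cell lectin singled out after its values were seen, fell by 0.97. CALB2, calretinin, rose from 80.6, 52.1 and 66.0 FPKM to 130, 134 and 150 FPKM (1.07, limma adjusted p = 0.029). TRBC2 and TRBJ2-7, the constant and a joining segment of the T-cell receptor beta locus, rose by 1.05 and 0.96 while the leukocyte markers stayed at the levels given above. WNT5A, a noncanonical WNT ligand, fell by 0.70, and LFNG, a glycosyltransferase that modifies NOTCH, by 0.99.

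Several falls came from transcripts that share sequence or position. MIR1244-2 and MIR1244-3, annotated as 2 hairpins of miR-1244, fell by 1.18 and 2.02 (limma adjusted p = 0.012 and 0.048), MIR1244-3 from 6, 14 and 16 reads to 1, 4 and 3 reads. The mature sequence is shown, with the seed at bases 2 to 8 in capitals, because its hairpins occur in 4 copies that RefSeq gives as identical over 85 bases.
hsa-miR-1244: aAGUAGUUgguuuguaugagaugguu
The copy on chromosome 2 lies within PTMA, the gene of prothymosin alpha, and 4 of 12 PTMA transcripts in GENCODE contain the whole hairpin. PTMA, singled out after its values were seen, fell from 343, 288 and 307 FPKM to 155, 169 and 178 FPKM (-0.90, limma adjusted p = 0.017), and its pseudogene PTMAP5 by 0.73. Reads of the hairpins and of prothymosin alpha cannot be told apart in these values. A Y RNA copy on chromosome 17 (64390158 to 64390263) fell by 1.72, from 7, 13 and 14 reads to 3 reads in each shSYK library, and lies inside PECAM1, which fell as well, and the strand of the reads is not stated. FCF1, a ribosome assembly factor, fell from 17.7, 23.1 and 21.7 FPKM to 6.56, 6.90 and 5.60 FPKM (-1.57, limma adjusted p = 0.0049). UCA1, a long noncoding RNA of carcinomas that was singled out after its values were seen, fell from 98.4, 90.8 and 85.9 FPKM to 40.4, 47.8 and 43.7 FPKM (-1.05, limma adjusted p = 0.011). NANOS1, an RNA-binding repressor, fell by 1.29 and SNHG8, a small nucleolar RNA host, rose by 0.64.

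The list medians printed above were compared with libraries scaled to an equal sum, quantile normalized, fitted as recovered reads with limma-voom or GC-adjusted. They kept their sign, except for the keratins and the amino acid transporters. The latter had a median of 0.02 as deposited, -0.005 with an equal sum and -0.04 GC-adjusted. These scalings moved the median of all genes to between -0.02 and 0.02.

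SYK was also knocked down in HCC827 and EBC-1, where it fell by 1.34 and 0.85 (log2; limma fit of all 18 libraries). Of the 15 largest rises in PC-9, 6 belonged to genes under 1 FPKM in both groups of both other lines: KRT5, OLFML3, KRT6B, OLR1, TRBC2 and TRBJ2-7. Of the 15 largest falls 5 did: CST1, IGFBP5, the Y RNA copy, PECAM1 and MAG. In the test of the difference between lines, 12 of the 15 rises and 7 of the 15 falls differed from both, against 6.79% of all genes for HCC827 and 19.1% for EBC-1. These genes were chosen for their change in PC-9, so the counts are a description. Over all genes tested, 23.5% had changed in HCC827 and 40.7% in EBC-1. Of the 100 named genes that had changed in PC-9, 25 had also changed in the same direction in both other lines. Shares of all genes for both lines together were not computed, for this count, for the 15 rises and falls or for levels under 1 FPKM. These joint counts therefore have no background to be read against. Among the 30 largest rises and falls, the genes changed in the same direction in all 3 lines were SPRR1A (1.001 in PC-9, 0.79 in HCC827 and 1.74 in EBC-1), SLC7A5 (-1.29, -2.01 and -1.29), FCF1 (-1.57, -1.26 and -0.49), ATP5J2 (-1.13, -1.53 and -0.48) and MIR1244-2 (-1.18, -0.79 and -0.59). Others of the 25 were SYK, VIM (1.02, 2.53 and 1.04), SNAI2 (0.71, 1.22 and 0.52), BMF (-0.92, -1.53 and -1.07) and MUC4 (-0.96, -1.40 and -1.15). NANOS1 fell in PC-9 and EBC-1 (-0.35) and rose in HCC827 (0.44). GADD45A rose in HCC827 (0.80) and fell in EBC-1 (-0.92). SYK differed in its fall from HCC827 by 0.06 and from EBC-1 by -0.44 (limma adjusted p = 0.90 and 0.053).

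**Figure D5:**
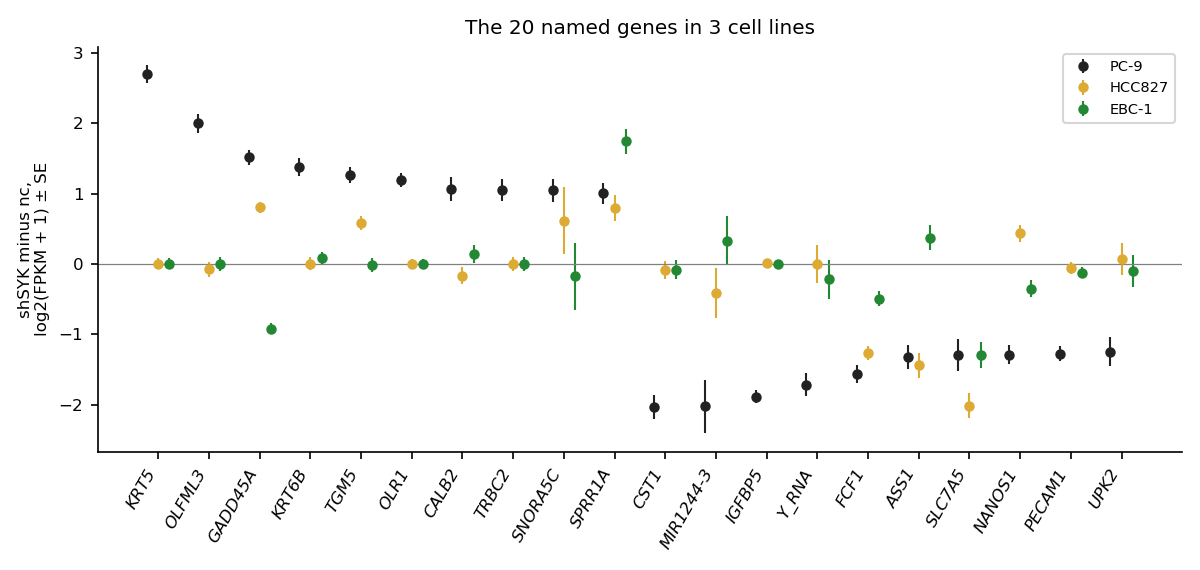
Difference between shSYK and nc (y axis, log2(FPKM + 1), with SE) of 10 of the largest rises and the 10 largest falls of PC-9 in PC-9 (black, fit of its 6 libraries) and in HCC827 (yellow) and EBC-1 (green, both from the fit of 18 libraries). KRT5, at 2.70 in PC-9, lies at 0 in the other lines, where it had no reads, and SLC7A5 is negative in all 3 lines.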

How the data were processed

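Libraries of PC-9 cells with an shRNA against SYK or a negative control, 3 each, were assigned to groups from their labels. TRIzol-extracted RNA was read on a HiSeq instrument and hg38 served as the reference, per the study's methods. The submitters' processing notes also name CASAVA and HISAT2 and list hg19 beside hg38, with no versions, and the annotation is not given in the sources used here. The authors deposited FPKM per gene for each cell line, and the tables of HCC827 and EBC-1 were used only where lines are compared. FPKM times gene length gave whole reads for 100% of values within 0.01, so depths were recovered. Reads give counting error only. Gene positions overlapped those of GENCODE v44 on GRCh38 for 99.9% of the 57532 genes found there.

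Genes whose FPKM averaged 1 or more in PC-9 were fitted with limma 3.58.1 in R 4.3.3 on log2(FPKM + 1), with empirical Bayes moderation and a variance trend, two-sided, and Benjamini-Hochberg adjustment over the 12089 genes at 0.05. For GC-adjusted values a lowess (span 0.3) of each library's deviation on gene GC content was subtracted. Differences between lines were contrasts in 1 limma fit of 18 libraries, whose tables were normalized separately. Curated lists (53) and symbol families (38) were summarised without a test. Members and lists were chosen with earlier results of these data known. Named are SYK, the 15 largest rises and falls among non-overlapping changed genes averaging 5 FPKM or more, up to 4 changed members of a list in each direction, the genes the study followed, and the most abundant member of lists without a change. Members named for GC-adjusted calls alone were chosen after their values were seen. Motifs were searched in RefSeq promoters with Python 3.11.15, pandas 2.3.3 and scipy 1.17.1, and figures drawn with matplotlib 3.10.9. The fits were also run on simulated counts with a fixed dispersion, and no result given here rests on that run. Alternatives were other pseudocounts, filters, scalings and variance models, limma-voom, a replicate block, and each library left out. Some named genes are not reported here.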

Additional observations from a re-analysis of the deposited data

Results flagged for a closer look

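For genes among the largest rises and falls of PC-9, the change was tested against that in the other lines as an interaction in the limma fit of all 18 libraries, and the differences given here had an adjusted p under 0.05. KRT5 differed by 2.70 (log2) from both HCC827 and EBC-1, where it had no reads. OLFML3 differed by 2.08 from HCC827 and 2 from EBC-1, and KRT6B by 1.38 and 1.30, genes near 0 in both lines. GADD45A differed by 0.71 from HCC827 and by 2.43 from EBC-1, where it fell. Among the falls, CST1 differed by -1.95 from each line, IGFBP5 by -1.89 from each and the Y RNA copy within PECAM1 by -1.72 and -1.50, with levels near 0 outside PC-9. MIR1244-3 differed by -2.35 and FCF1 by -1.07 from EBC-1. The 3 tables were normalized separately, and a difference in a gene that a line does not express follows from its level there.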

How the results depend on the processing

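The 253 calls (82 up, 171 down) were compared with each alternative. The number of changed genes moved to 47 with no filter (22 up, 25 down), 480 with TPM scaling (358 down), 505 with quantile normalization (179 up, 326 down), 485 with limma-voom on the recovered reads (365 down), 1511 in the fit of all 18 libraries (660 up, 851 down) and 1371 with GC and length trends removed (611 up, 760 down). Removal of the GC trend alone gave 1235 (533 up, 702 down), a change of at least 1 (log2) 63 (19 up, 44 down), and the filter at a mean FPKM of 5 left 103 falls. Leaving out a library gave 7 to 621 calls (5 to 298 up, 2 to 344 down), and with the GC trend removed 469 to 1795 (175 to 896 up, 294 to 899 down). The latter counts were 1259 (544 up, 715 down) without nc replicate 2, 479 (185 up) without nc replicate 3, 489 (178 up, 311 down) without shSYK replicate 2 and 507 (185 up, 322 down) without shSYK replicate 3. On the deposited values with a library left out, SYK ranged from -1.35 to -1.18. It lost its call there only without shSYK replicate 1 (-1.33, limma adjusted p = 0.0648). With the GC trend removed, SYK kept its call whichever library was left out.

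Deviations from the group means showed no consistent pairing by the replicate numbers in the labels. Same-numbered libraries had correlations of -0.05, 0.32 and -0.12, and nc replicate 1 with shSYK replicate 3 had 0.38. These values cannot tell whether same-numbered libraries shared a culture or a day. With the replicate block 172 genes had changed (47 up, 125 down), and 778 (317 up, 461 down) with block and GC trend removal together. SYK kept its call under the block. Of the 100 named changed genes, 66 kept theirs, and 98 did with the GC trend also removed. TGFB1, not called, ranged from -0.186 without nc replicate 2 to 0.306 without nc replicate 1, with -0.0327 without shSYK replicate 3. AXL ranged from -0.0595 to 0.0872 for the same nc libraries, with -0.00822 without shSYK replicate 3. Library quality weights did not converge and put nearly all weight on nc replicate 3 (2720, against 0.0481 to 0.623 for the others), so no fit with them is given. The cause of these shifts was not tested. Depth limits genes such as SNAI2 and MT-TE, with 12 to 62 and 0 to 3 reads a library.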
